A study of Mus musculus with 3 samples.

Results

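The genes described here are 8 heat shock chaperones of the mouse: Hspa1a, Hspa1b, Hsp90aa1, Hsph1, Dnajb1, Hspe1, Hspd1 and Hspa8, out of 22548 genes counted. They were taken as a named list because levels of this group in the same data had stood out between sorted populations, so those between-population values are a description and were not tested. The cells were dendritic cells from lymph nodes draining the ear, labelled as migratory cells that are neither Langerhans cells nor type 1 conventional dendritic cells. All mice had the genotype SiglechiCre Tg/0, ROSA26 LoxP-STOP-LoxP-RFP, Tnfsf4 KI/+, and all received MC903, a vitamin D analogue that inflames skin, on days 0, 2 and 4 before sorting on day 5. No untreated cells and no mice without these alleles were compared. RFP marks cells in which Cre driven by Siglech had acted at some time, and BFP was knocked into Tnfsf4, which encodes OX40L, a ligand that costimulates T cells. The sort gate was B220-, MHCII high, CD11c low to intermediate, XCR1- and CD326-. The 4 reporter classes (each combination of BFP and RFP, present or absent) were each marked with their own hashtag antibody and loaded as 1 pool. Each population is therefore 1 sample, and the sources used here do not give the number of mice.

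Heat shock proteins are chaperones that hold, fold or refold other proteins. In unstressed cells the transcription factor HSF1 is kept inactive by chaperones, and when misfolded protein accumulates HSF1 binds repeated heat shock elements upstream of its target genes. Hspa1a and Hspa1b encode the stress-inducible cytosolic HSP70, Hspa8 encodes its constitutive relative, and Dnajb1 (HSP40) and Hsph1 (HSP110) are its partners. Hsp90aa1 encodes the inducible cytosolic HSP90, while Hspd1 (HSP60) and Hspe1 (HSP10) form the folding chamber of the mitochondrion. In cells taken from tissue these genes are also known to respond to handling, as immediate early genes do.

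Sequences around the start of 4 members are shown because they differ in the heat shock words they hold and in the data that follow. RefSeq promoter entries (build GRCm38.p6, 250 bases before to 50 after an annotated start) were found for 6 of the 8 members and not for Hsp90aa1 or Hspa8. For Hspa1a, Hspa1b and Hspe1 the 250 bases before the start are printed 5′ to 3′ on the gene's own strand, with matches to GAANNTTC or TTCNNGAA in capitals. Both words are their own reverse complement, so a match counts for both strands, and overlapping matches were counted separately.
Hspa1a, chr17:34972157-34972406, minus strand: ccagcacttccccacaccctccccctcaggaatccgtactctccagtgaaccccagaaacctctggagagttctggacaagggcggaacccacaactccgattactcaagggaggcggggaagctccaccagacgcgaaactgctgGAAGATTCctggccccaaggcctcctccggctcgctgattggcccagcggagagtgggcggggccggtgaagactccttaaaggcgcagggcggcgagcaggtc
Hspa1b, chr17:34959239-34959488, minus strand: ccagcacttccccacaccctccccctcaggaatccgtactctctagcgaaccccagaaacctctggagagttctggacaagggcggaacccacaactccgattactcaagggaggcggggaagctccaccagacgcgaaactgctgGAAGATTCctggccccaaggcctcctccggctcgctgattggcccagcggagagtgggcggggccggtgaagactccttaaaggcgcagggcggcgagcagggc
Hspe1, chr1:55087898-55088147, plus strand: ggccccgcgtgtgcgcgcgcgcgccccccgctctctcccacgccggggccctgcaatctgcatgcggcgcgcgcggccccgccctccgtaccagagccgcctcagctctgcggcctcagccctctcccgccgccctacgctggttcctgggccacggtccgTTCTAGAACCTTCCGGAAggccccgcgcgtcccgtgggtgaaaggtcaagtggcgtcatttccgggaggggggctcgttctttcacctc
Hsph1, chr5:149636276-149636305, minus strand, a stretch of 30 bases, within the 50 bases after the start, with an overlapping pair of matches: gcagaTTCTGGAAAGTTCtcctcagtaggc

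Hspa1a and Hspa1b differed at 3 of these 250 bases, and each held 1 match, 97 to 104 bases before the start. Hspe1 held 3 overlapping matches in 18 bases, 72 to 89 bases before its start, and 285 bases of its entry are the same DNA, read on the opposite strand, as an entry of its neighbour Hspd1. Hsph1 also held 3 matches in its 300 bases, and Dnajb1 held 0 in both of its entries. Of 32851 promoter entries of 300 bases, 15.1% held at least 1 match and 0.256% held 3 or more. A match is a description of the letters, not a site shown to be bound, and the number of matches did not follow the order of differences given below: Hspe1, with 3, had nearly level counts in all 4 populations, while Hspa1a and Hspa1b, with 1 each, had the widest differences.

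Of 6079 barcodes, 5023 (82.6%) were kept. Of the BFP+ cells 842 were RFP+ and 2185 RFP-, and of the BFP- cells 982 were RFP+ and 1014 RFP-. Populations had medians of 13884 to 15182 mRNA molecules (UMIs) per cell and totals of 14140272 to 35590897. Of the kept cells, 4524 lay in 8 dendritic cell clusters that detected all 15 migratory dendritic cell markers, and 85.1% (BFP-RFP+) to 91.4% (BFP+RFP-) of a population did. The other 499 lay in clusters that also detected 11 to 15 of the migratory markers. Those clusters were set apart by raised B cell, T or NK cell, or macrophage markers. Levels are UMIs per 1000000 mRNA UMIs (CPM), and ratios are log2 ratios of these sums with a pseudocount of 0.5 UMI. Ranges in brackets are exact 95% intervals that cover counting error only, not the spread between cells, mice or sorts. A gene is called lower or higher where its log2 ratio was at least 0.5 in size and its interval excluded 0.

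The stress-inducible HSP70 genes were the members that differed most between the reporter classes, and the order was the same for both. Hspa1a was at 30.8 CPM (27.9 to 33.8) in BFP+RFP+, 64.9 (62.3 to 67.6) in BFP+RFP-, 107.5 (102.5 to 112.8) in BFP-RFP+ and 135.0 (129.2 to 141.1) in BFP-RFP- cells. Hspa1b was at 42.9 CPM (39.5 to 46.4), 91.4 (88.3 to 94.6), 137 (131 to 143) and 183 (176 to 190) in the same order. No intervals of neighbouring populations in either order overlapped. Hspa1b took 56.1% to 58.5% of the UMIs of the pair in all 4 populations, so between populations the pair moved together and is also given as a sum. In some splits of the cells within populations, given below, Hspa1a and Hspa1b were less alike. Both genes encode nearly the same protein, and how reads shared by both were counted is not given in the sources used here. The sum was 73.6, 156, 245 and 318 CPM in that order.

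BFP+ cells held less of the HSP70 pair than BFP- cells in both RFP states. Within RFP+ the sum was 3.32-fold lower, a log2 ratio of -1.73 (-1.83 to -1.63), and within RFP- it was 2.04-fold lower, at -1.03 (-1.08 to -0.97). The log2 ratio was thus further from 0 within RFP+ by -0.71 (-0.82 to -0.59). RFP+ cells were lower than RFP- cells within BFP+, at -1.09 (-1.18 to -0.99), while within BFP- the log2 ratio was -0.38 (-0.44 to -0.32), which does not reach the size needed for a call.

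**Figure D1:**
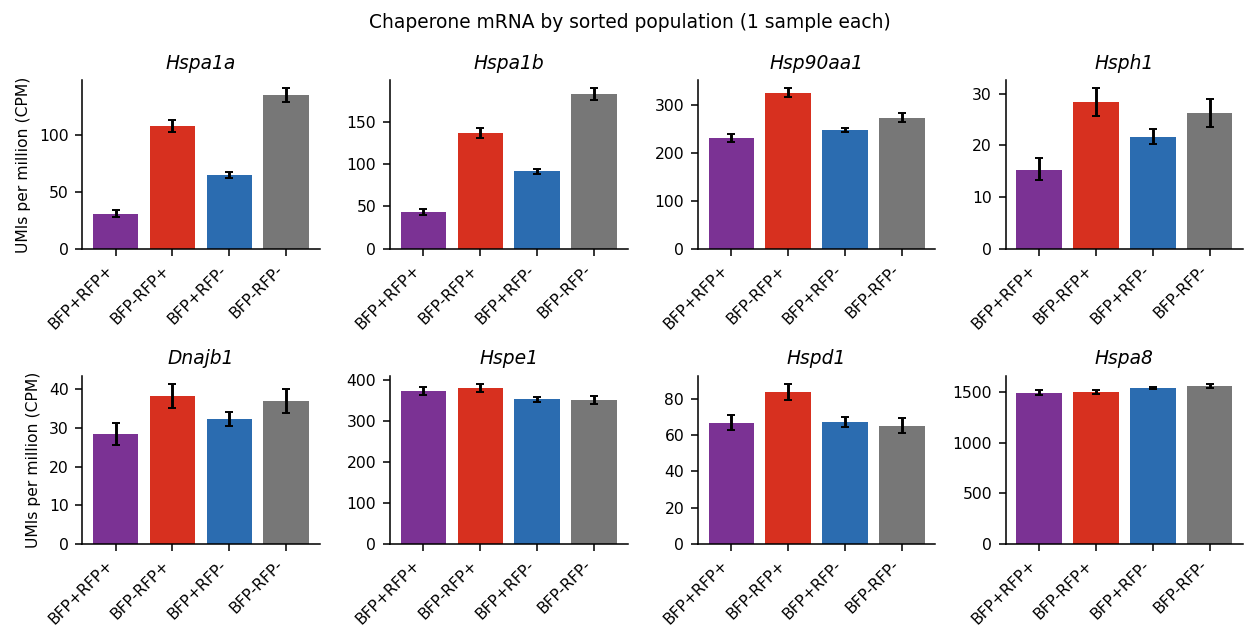
CPM of the 8 chaperone genes (one panel each, vertical axes from 0) in the 4 sorted populations, each 1 sample; bars are summed levels and error bars exact 95% Poisson intervals. Hspa1a runs from 30.8 in BFP+RFP+ to 135.0 in BFP-RFP- cells, while Hspa8 lies between 1498 and 1566 in all 4.

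The partners of HSP70 and the inducible HSP90 gene showed smaller differences, with their lowest level in BFP+RFP+ cells in each case. Hsph1, the HSP110 nucleotide exchange factor, was at 15.3 CPM in BFP+RFP+, 21.6 in BFP+RFP-, 26.1 in BFP-RFP- and 28.3 in BFP-RFP+ cells. It was called lower in BFP+ within RFP+, at -0.89 (-1.13 to -0.65), and had a log2 ratio of -0.27 within RFP-. Hsp90aa1 was at 231 CPM in BFP+RFP+, 248 in BFP+RFP-, 274 in BFP-RFP- and 326 in BFP-RFP+ cells. Its log2 ratio within RFP+ was -0.499 (-0.563 to -0.436), just outside the call, and within RFP- it was -0.14. In dendritic cell clusters alone it was -0.53 within RFP+ and was called lower. Dnajb1, which delivers clients to HSP70, was at 28.4, 32.2, 36.8 and 38.2 CPM in that order, with log2 ratios for BFP of -0.43 and -0.19. In contrast to the HSP70 pair, whose highest level was in BFP-RFP- cells, these 3 genes had their highest value in BFP-RFP+ cells, although the intervals of BFP-RFP+ and BFP-RFP- overlapped for Hsph1 and Dnajb1.

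The mitochondrial chaperonin and the constitutive HSP70 varied little. Hspe1 was at 351 to 381 CPM and Hspa8 at 1498 to 1566 CPM in the 4 populations. All log2 ratios of Hspe1 lay between -0.03 and 0.12, and those of Hspa8 between -0.06 and -0.01. Hspd1 was at 64.9 to 67.4 CPM in the other 3 populations and at 83.7 (79.2 to 88.3) in BFP-RFP+ cells. Its interval there did not overlap that of any other population, but no ratio of it reached the call size. Hspd1 and Hspe1 share a promoter region and act in the same complex, yet their log2 ratios for RFP within BFP- were 0.37 (0.25 to 0.49) and 0.12 (0.06 to 0.17).

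Counted over the list, 3 members (Hspa1a, Hspa1b, Hsph1) were called lower in BFP+ within RFP+, where 9.07% of the 9463 genes with at least 100 UMIs in the pair of populations were. Within RFP- 2 were (Hspa1a, Hspa1b), beside 5.1% of 10237 genes. For RFP, 2 members (Hspa1a, Hspa1b) were lower within BFP+, beside 6.4% of 10139 genes, and 0 within BFP-, beside 3.84% of 9612. No member was called higher in any of the 4 comparisons, where 2.48%, 2.37%, 4.14% and 5.06% of genes were. Because the members were chosen from these contrasts, nothing is read from the counts. The median log2 ratio of the 8 members was -0.46 and -0.17 for BFP (within RFP+ and RFP-), beside -0.09 and -0.07 over all genes. The comparisons share populations and are not independent of each other.

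**Figure D2:**
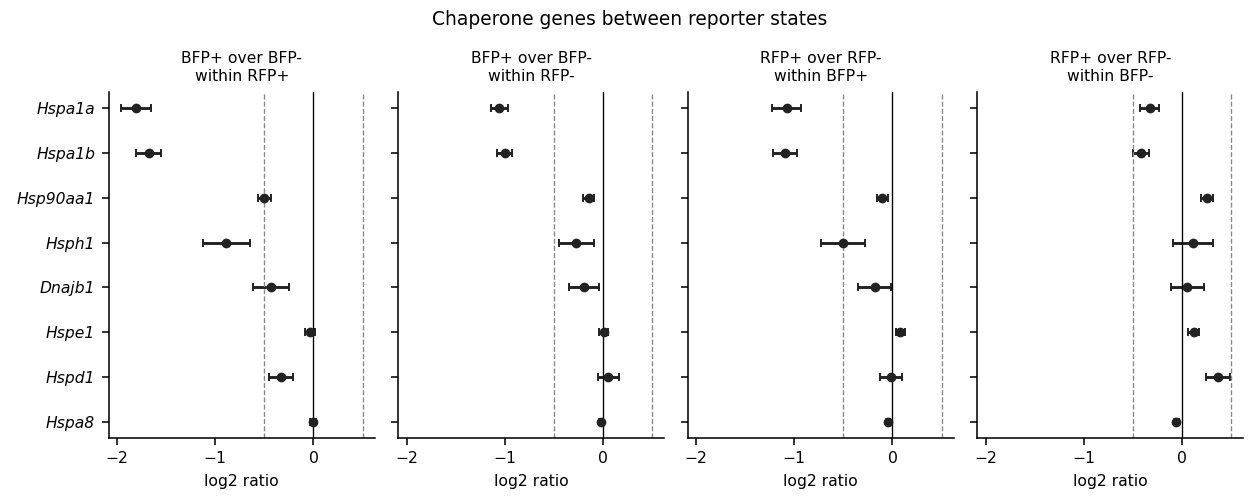
Log2 ratios of the 8 members (rows) in the 4 comparisons of reporter states (panels), with exact 95% intervals for counting error; the solid line is 0 and the dashed lines mark the size of 0.5 needed for a call. Hspa1a and Hspa1b lie left of the dashed line in the first 3 panels, and Hspe1 and Hspa8 lie close to 0 in all 4.

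The lower HSP70 level of BFP+ cells was also seen inside each dendritic cell cluster that could be compared. The clusters divide the same cells, 1 sample per population, in which the members had stood out. They are therefore not replicates, and the counts of clusters are a description only. The share of all genes called in each cluster was not counted. Clusters were made without the members, other heat shock genes, immediate early genes, mitochondrial genes or the reporters, and were compared where both populations had at least 30 cells. Within RFP- the Hspa1a and Hspa1b sum was called lower in BFP+ cells in 8 of 8 clusters, with log2 ratios from -1.61 to -0.72. Within RFP+ it was called lower in 7 of 7, from -2.15 to -0.9997. The RFP difference was less even: within BFP+ 6 of 7 clusters were called lower (-1.10 to 0.08), and within BFP- 3 of 8 were called lower and 4 of 8 lay above 0 (-0.71 to 0.23). Taken singly, for RFP within BFP+ Hspa1a was called lower in 3 of 7 clusters and Hspa1b in 6 of 7. Hsph1 was below 0 in 7 of 7 clusters for BFP within RFP+, with 4 called, while Hspe1 and Hspa8 had no called cluster in any comparison. The cluster of T or NK cell markers went the other way within RFP-, at 242 CPM in 104 BFP+ and 114 CPM in 36 BFP- cells.

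**Figure D3:**
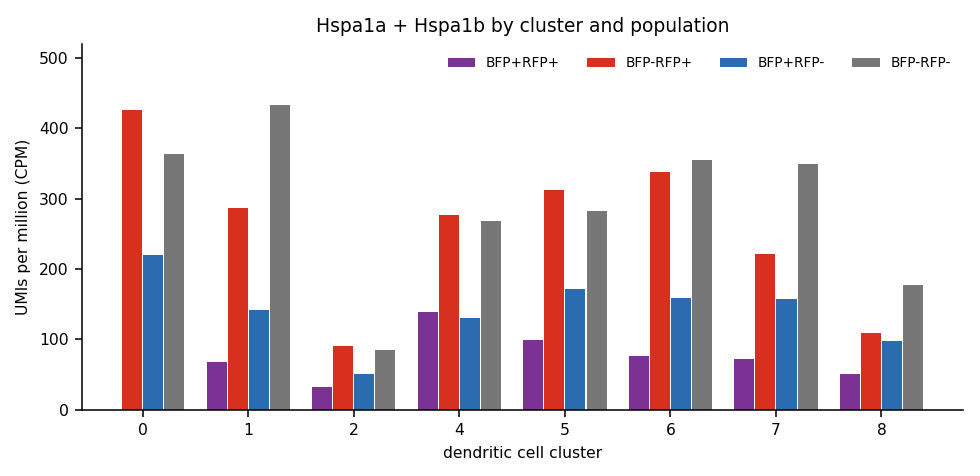
Summed Hspa1a and Hspa1b level (CPM, axis from 0) in each dendritic cell cluster (numbered) and population (colours), shown where a population had at least 30 cells; each bar is one sum with no replicates. Wherever both are shown, the BFP+ bar is below the BFP- bar of the same RFP state, and clusters 2 and 8 are low in all 4 populations.

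Clusters themselves differed in the HSP70 pair more than in the constitutive members. The sum ran from 57.7 CPM (52.9 to 62.8) in the 454 cells of cluster 2, led by Dll4 and Thy1, to 267 CPM (256 to 278) in the 461 cells of cluster 0, led by Ifitm1, Isg15 and Apol7c, a 4.62-fold range. The same range was 2.76-fold for Hsp90aa1 and 2.37-fold for Hspd1, both highest in cluster 1, whose leading genes include Mki67, Tyms and Hmgb2. Hspe1 (1.33-fold) and Hspa8 (1.42-fold) had the narrowest ranges, also with their highest level in cluster 1. Outside the dendritic cell clusters, the 131 cells of cluster 11, with raised markers of macrophages and of CD11b+ type 2 or monocyte-derived dendritic cells, held 341 CPM (323 to 360) of the HSP70 pair.

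That cell type moved with the BFP contrast, in which 9.07% (RFP+) and 5.1% (RFP-) of all genes were called lower. Of the measured markers of CD11b+ type 2 or monocyte-derived dendritic cells, 9 of 9 within RFP+ and 10 of 10 within RFP- were called lower in BFP+ cells, and of the macrophage markers 8 of 9 and 9 of 10 were. The summed level of the first list was 217 and 196 CPM in BFP+RFP+ and BFP+RFP- and 575 and 580 CPM in BFP-RFP+ and BFP-RFP- cells, and that of the macrophage list was 172, 140, 375 and 364 CPM. No gene of either list was at 0 in any population. Other marker lists also shifted with BFP. Of T or NK cell markers, 6 of 11 were called lower within RFP+ and 4 of 12 higher within RFP-. B cell markers were called higher in 4 of 6 and 4 of 10, with 2 of those 10 lower. Langerhans cell markers were called lower in 2 of 3 and 2 of 4. Restricted to dendritic cell clusters, the log2 ratio of the HSP70 pair for BFP was -1.92 within RFP+ and -1.08 within RFP-, as large as over all cells. With the same mix of those clusters in every population it was -1.63 within RFP+, while for RFP it was -0.72 within BFP+ and -0.13 within BFP-. Each population was sorted and hashtagged apart from the others, so sort and reporter class cannot be told apart.

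The antibody tags gave a readout of surface protein, and since the members were chosen with the tag levels in view these values are a description as well. In each population, cells above the 75th percentile of a tag's UMIs (the upper group) were compared with cells at or below the 25th (the lower group). For CD172a (SIRPa, a surface protein of type 2 dendritic cells and macrophages), the HSP70 pair was at 96.7 against 56.0 CPM in BFP+RFP+, 183 against 123 in BFP+RFP-, 401 against 137 in BFP-RFP+ and 423 against 247 in BFP-RFP- cells, upper group first. The log2 ratios were 0.78, 0.57, 1.55 and 0.78, above 0 in 4 of 4 populations and furthest from 0 in BFP-RFP+ cells. For CD301b (the lectin Mgl2) they were 0.57, 0.37, 1.48 and 0.67 in the same order, and for CD11b 0.39, 0.63, 0.74 and 0.29. For CD8a the sign was opposite, at -1.20, -1.02, -0.44 and -0.67.

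Hspa1a was the one member called in all 4 populations, higher with CD172a and higher with CD301b, where 1.51% of 6076 and 0.575% of 6092 genes were. No member was called lower in all 4 with these tags, where 2.44% and 1.17% of genes were. No member was called in all 4 with CD11b or CD8a, where 1.34% and 1.09% of genes were called lower and 1.49% and 0.803% higher. In dendritic cell clusters alone, Hspa1a remained called in all 4 populations with CD172a (0.64 to 1.96) and in 3 of 4 with CD301b (0.49 to 1.77). Hspa1b, its near-identical copy, was called in 3 of 4 populations with each of CD172a and CD301b (higher) and CD8a (lower), as Hspa1a was with CD8a and, higher, with CD11b. With CD11b, Hspa1b was called in 0 of 4 (0.05 to 0.47). In dendritic cell clusters alone, Hspa1b was called higher in 2 of 4 with CD172a (0.36 to 1.98) and in 3 of 4 with CD301b (0.28 to 1.82). Of the other members, Hspd1 was lower with CD172a in BFP-RFP+ (-0.67) and BFP+RFP- cells (-0.55), and Hsph1 was higher with CD172a (0.63) and CD301b (0.57) in BFP-RFP+ cells. With CD8a, Hsph1 (-1.07) and Hspd1 (-0.52) were lower in BFP+RFP+ cells, and Hspa8 stayed between -0.005 and 0.24 for all 4 tags and populations. Upper groups of a tag were also deeper: for CD172a the medians were 10546 to 11470.5 UMIs per cell in lower and 17997.5 to 20365.5 in upper groups. The part of depth in the result was not tested. With tag UMIs taken per mRNA UMI, tag and gene are scaled to the same mRNA UMIs, so this setting does not separate out depth. Under it the Hspa1a log2 ratios by CD172a were 0.84 to 2.21, called in 4 of 4 populations. Those of Hspa1b were 0.21 to 2.08, called in 3 of 4, and with CD301b Hspa1b was called in 2 of 4. Both Hspa1a and Hspa1b were called lower with CD8a in all 4. In dendritic cell clusters alone, both were called lower with CD8a in 2 of 4 populations (in BFP-RFP- cells -0.19 and -0.44), and Hspa1a was called higher with CD11b in 2 of 4.

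The share of mitochondrial UMIs, often read as a sign of damaged cells, had no common direction with the HSP70 pair over the 4 populations. Medians of this share were 1.94% to 2.22% in the 4 populations, 1.03% to 1.09% in the lower groups by this share and 3.31% to 3.74% in the upper groups. Scaled to non-mitochondrial UMIs, the HSP70 sum of the upper and lower group was 84.7 and 83.8 CPM in BFP+RFP+, 159 and 169 in BFP+RFP-, 211 and 272 in BFP-RFP+ and 313 and 321 in BFP-RFP- cells. The log2 ratios were 0.02, -0.08, -0.37 and -0.03, and the interval excluded 0 in BFP-RFP+ cells alone (-0.51 to -0.22). Spearman's rho over cells, a description with no test in which both measures share the library, was between -0.007 and 0.064. No member was called in all 4 populations, where 0.484% of 5577 genes were called lower and 2.87% higher. Hsph1 was called higher in the upper group of BFP+RFP- (0.85) and BFP-RFP+ cells (0.50), Hspd1 in BFP-RFP+ cells (0.55), and Hspa1a was called lower in BFP+RFP- cells (-0.59), where Hspa1b had a log2 ratio of 0.26. The upper groups held fewer cells of dendritic cell clusters, 78.9% to 81.1% against 88.2% to 98.0%. Among the cells of dendritic cell clusters in the same groups, Hsph1 remained called in BFP+RFP- cells (0.82) and Hspa1a was lower there (-0.64). The calls in BFP-RFP+ cells were lost, with 35.1 against 27.1 CPM for Hsph1 (0.38) and 94.7 against 69.3 CPM for Hspd1 (0.45). The log2 ratios of the HSP70 pair in those cells were 0.36, -0.15, -0.35 and 0.06, none of them called. Their intervals excluded 0 with opposite signs, above it in BFP+RFP+ cells (0.07 to 0.65). They lay below it in BFP+RFP- (-0.28 to -0.03) and BFP-RFP+ cells (-0.50 to -0.19).

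**Figure D4:**
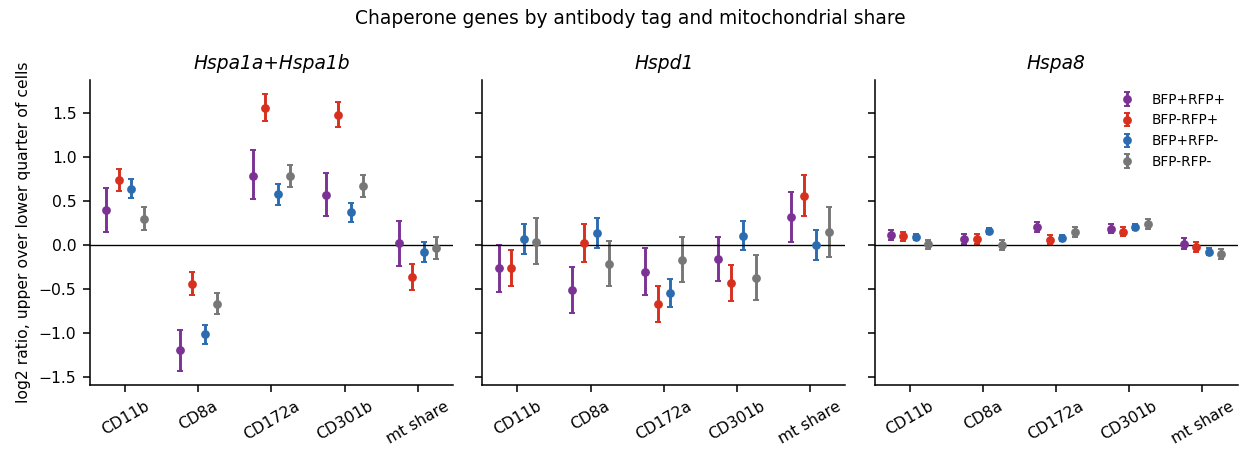
Log2 ratio of the upper group of cells (above the 75th percentile) over the lower (at or below the 25th) by each antibody tag and by mitochondrial (mt) share, per population (colours), for the HSP70 pair, Hspd1 and Hspa8; error bars are exact 95% intervals for counting error. The HSP70 pair lies above 0 for CD11b, CD172a and CD301b and below 0 for CD8a in all 4 populations, while Hspa8 lies near 0 throughout.

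The HSP70 UMIs were spread unevenly over cells. Each cell was thinned to 5000 UMIs, which left out 56 to 153 shallower cells a population. At that depth 18.7% of BFP+RFP+ (16.0 to 21.6), 31.1% of BFP+RFP- (29.0 to 33.1), 34.9% of BFP-RFP+ (31.8 to 38.1) and 45.8% of BFP-RFP- cells (42.6 to 49.1) held at least 1 UMI of the pair. Unthinned, the shares were 32.2%, 46.0%, 49.5% and 59.3%. Cells with 10 or more UMIs were 3 of 786, 14 of 2032, 16 of 900 and 34 of 928 in that order, or 0.382%, 0.689%, 1.78% and 3.66%. The populations therefore differed both in the share of cells with any UMI and in the share at high counts. The 5% of cells with the most held 57.3%, 45.4%, 45.9% and 41.9% of the pair's UMIs. This share was 15.5% to 16.5% for Hspe1 and 12.2% to 12.9% for Hspa8, which had more UMIs per cell. It was 38.2% to 44.4% for Dnajb1 and 29.4% to 36.0% for Hspd1. For Hsph1 it was above the pair's share in all 4 populations, and lowest in BFP-RFP+ cells (52.7%). Hsph1, Dnajb1 and Hspd1 had fewer UMIs per cell than the pair, so this share alone does not set the pair apart. The variance over the mean was 3.92, 4.42, 7.51 and 7.86 for the pair, where counting alone gives 1. It was 2.43 to 2.84 for Hspa8, 1.67 to 2.31 for Hsp90aa1 and 1.28 to 1.40 for Hspe1. For Hsph1, Dnajb1 and Hspd1 it was 1.06 to 1.57. Where counts spread more than counting alone gives, this measure also rises with the mean. The pair's mean was 0.38, 0.75, 1.18 and 1.60 UMIs per cell in that order. The measure alone therefore does not rank the populations, or the pair against members with fewer UMIs, by unevenness. No cell type that lacks these genes was at hand to measure free RNA in droplets. All 4 populations shared 1 capture.

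Cells high in the HSP70 pair were also higher in the other members. Over all populations, the 67 cells with 10 or more thinned UMIs of the pair held 666 CPM of Hsp90aa1, 79.3 of Hsph1 and 96.7 of Dnajb1, against 245, 17.3 and 29.8 CPM in the 3129 cells with 0. Hspd1 was at 119 against 68.2 CPM, Hspa8 at 1956 against 1508 and Hspe1 at 468 against 353. Within single populations, Hsp90aa1, Hsph1, Hspe1, Hspd1 and Hspa8 were higher in these cells than in those with 0 in 4 of 4. Dnajb1 was at 84.6 against 31.3 CPM in BFP-RFP+ and 134 against 31.0 CPM in BFP-RFP- cells. It was nearly level in the 14 such BFP+RFP- cells (35.0 against 30.3 CPM) and had no UMI in the 3 such BFP+RFP+ cells. The value of every member in BFP+RFP+ rests on those 3 cells. The share of all genes that were higher in the same cells was not counted. The summed immediate early genes were at 7789 against 3575 CPM. Median mitochondrial share was 2.11% against 1.96% and median depth 14412 against 15227 UMIs, and 34 of the 67 cells were BFP-RFP-. By population, the median CD172a count was 223 against 64 in BFP+RFP+, 233.5 against 93 in BFP-RFP+ and 253 against 136 in BFP-RFP- cells, but 78 against 93 in BFP+RFP- cells. The median CD8a count was lower in the cells with 10 or more in 4 of 4 populations. Across single cells the members were only loosely tied: Pearson's r of log values was 0.29 to 0.52 for Hspa1a with Hspa1b over the 4 populations and at most 0.24 for any other pair, with sparse counts in every pair.

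**Figure D5:**
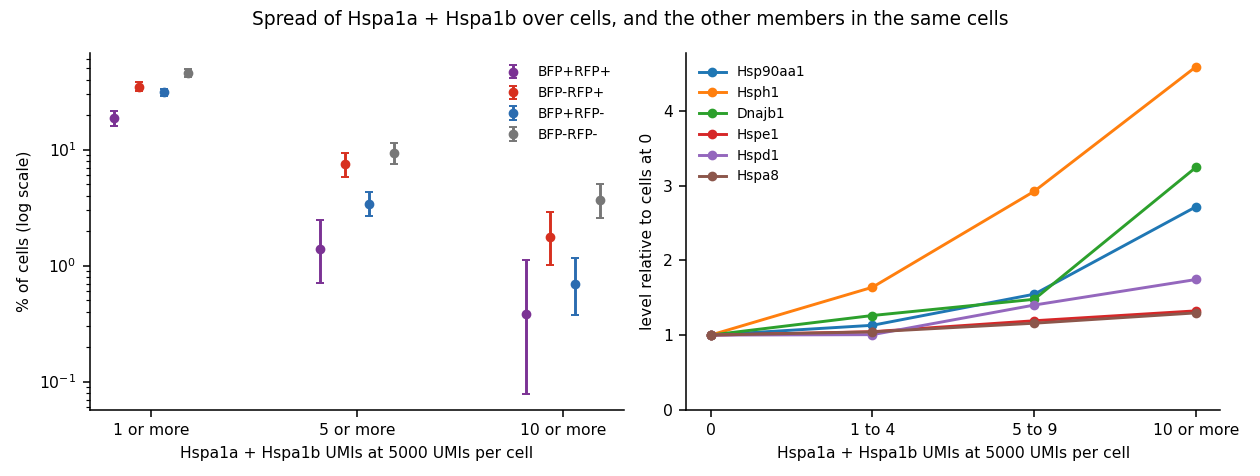
Left, percent of cells (log axis) with at least 1, 5 or 10 UMIs of Hspa1a and Hspa1b together after thinning to 5000 UMIs per cell, with exact 95% binomial intervals. Right, summed level of the 6 other members in cells grouped by those UMIs, relative to cells at 0; the group of 10 or more has 67 cells, in which Hsph1 stands highest and Hspe1 and Hspa8 lowest.

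Among 6487 genes with at least 1000 UMIs, those most like the HSP70 pair over single cells, by the lowest Pearson's r of the 4 populations, included 3 other members: Hsp90aa1 ranked 3, Hsph1 7 and Dnajb1 12. Hspd1 ranked 33, Hspa8 55 and Hspe1 917. Those most alike outside the list included Jund, Klf2, Apol7c, Npc2, Psap, Fosb, Atf3, Rab11fip1, Bag3, Dusp1 and Dnaja1. Jund, Fosb and Atf3 encode AP-1 or related factors, Klf2 and Dusp1 are immediate early genes, Apol7c belongs to the apolipoprotein L family, Bag3 and Dnaja1 are HSP70 cochaperones, and Npc2 and Psap encode lysosomal proteins. The correlations were low: the lowest r was 0.15 for Jund, only 10 genes reached 0.1, and the median gene was at -0.03. Apol7c, Klf2, Psap and Fosb were also called lower in BFP+ cells in both RFP states, with log2 ratios of -2.14 and -0.59, -0.79 and -0.62, -0.75 and -0.55, and -0.56 and -0.54 (within RFP+ first). Jund, Bag3 and Dusp1 were not called in either.

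Counts for the wider heat shock response are set beside the shares of all genes given above. Of 51 other heat shock genes, 43 or 44 had enough UMIs, and 3 (Hspbp1, Fkbp4, Clpb) were called lower and 1 (Hspa2) higher in BFP+ cells within RFP+, near the 9.07% and 2.48% of all genes. Within RFP- 0 were called in either direction, beside 5.1% and 2.37%. Their median log2 ratio was -0.16 and -0.002, against -0.09 and -0.07 over all genes. Hsp90ab1, the constitutive HSP90, had log2 ratios of -0.25 and -0.01, and Bag3, Hsf1 and Dnajb4 had -0.41 and -0.32, -0.46 and -0.32, and -0.45 and -0.48. For RFP, Dnajb4 was called lower in both BFP states (-0.56 and -0.60), Hspa2 higher within BFP+ (0.69) and Fkbp4, a cochaperone of HSP90, higher within BFP- (0.53).

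Of 25 genes of the unfolded protein response of the endoplasmic reticulum, 22 were measured, and Hspa5 (BiP) and Hyou1 were called lower in BFP+ within RFP+ (-0.54 and -0.67), a share near the 9.07% of all genes. Within RFP- 0 were called, and Hspa5 had -0.46. Of the immediate early genes, 3 of 20 (Fosb, Fosl2, Klf2) were called lower in BFP+ within RFP+ and 4 of 21 (Fosb, Egr1, Egr2, Klf2) within RFP-, beside 9.07% and 5.1% of all genes, and 0 higher. For RFP within BFP+, Jun (0.51) and Nr4a1 (0.73) were called higher and Atf3 lower (-0.57), and Atf3 was lower within BFP- as well (-0.53) while Ier2 was higher (0.67). Fos (-0.07 and -0.27), Junb (-0.08 and -0.04) and Dusp1 (-0.17 and -0.13) were not called for BFP.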

How the data were processed

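The deposited data are counts of unique molecular identifiers (UMIs) per gene, antibody tag and hashtag in each barcode, made with version 7.0.0 of Cell Ranger per the file headers. GRCm39 (mm39) is the build in the submitters' processing notes. Per the labels, 3' end libraries were amplified for 11 cycles as cDNA, then for 12 (mRNA), 14 (antibody tags) or 13 (hashtags) cycles. How cells were called, and how reads shared by near-identical genes were counted, is not stated there. RefSeq promoter entries are of GRCm38.p6, and no coordinates of the deposited counts were used with them.

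Barcodes were assigned to the population of their highest hashtag and kept with at least 80% of hashtag UMIs from it, no fewer than 1000 mRNA UMIs and a mitochondrial share of 10% or less. No doublet caller was run: the hashtag rule removed mixed populations, and doublets of cells of the same population remain. UMIs were summed per population. With 1 sample per population there is no test and no p-value. Intervals at 95% are Poisson for levels, conditional binomial for ratios and Clopper-Pearson for shares, and cover counting error only. The ratio, its interval and its call were checked on simulated sums. Clusters came from scanpy 1.11.5 (2000 variable genes, 30 components, 15 neighbours, Leiden resolution 0.5), and trimmed-mean (TMM) scaling from edgeR 4.0.16 in R 4.3.3. Dendritic cell clusters are those with at least 10 of 15 migratory markers detected in 20% of cells and under 4 raised markers of another type.

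The members, the gene lists and the rules for the genes named were chosen with earlier results of these data known. The rule took all 8 members, the 12 genes most like the Hspa1a and Hspa1b sum, and from each list its counts and up to 6 genes with the largest smaller ratio over both strata. Genes named beyond it (Hsp90ab1, Fkbp4, Hspbp1, Hspa2, the unfolded protein response genes and the immediate early genes named with their values) were chosen after their values were seen. Of the 12 genes, 1 is not reported here. Alternatives tried were other limits on hashtags, depth and mitochondrial share, TMM and non-mitochondrial scaling, equal weight per cell, removal of the highest cells, dendritic cell clusters alone and with the same mix, other splits of tags, other thinning and other clusters.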

Additional observations from a re-analysis of the deposited data

Results flagged for a closer look

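The RFP difference of Hsp90aa1 had opposite signs in the BFP states: the log2 ratio of RFP+ over RFP- was -0.10 (-0.16 to -0.05) within BFP+ and 0.25 (0.19 to 0.31) within BFP-, with both intervals on opposite sides of 0. The levels were 231 and 248 CPM within BFP+ and 326 and 274 CPM within BFP-, and with 1 sample per population the difference was not tested.

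A signal of the HSP70 pair was also present in barcodes that no comparison used. The 144 barcodes with over 10% mitochondrial UMIs, of median depth 1788 UMIs, held 161 CPM of non-mitochondrial UMIs of Hspa1a and Hspa1b (123 to 208, from 59 UMIs), against 193 CPM (190 to 196) in the kept cells, which have another mix of populations. By highest hashtag the values went both ways: 229 (114 to 409) against 75.1 CPM in BFP+RFP+, 382 (245 to 568) against 251 in BFP-RFP+, 32.6 (10.6 to 76.1) against 160 in BFP+RFP- and 188 (113 to 293) against 325 in BFP-RFP- barcodes. In the same barcodes Hspa8 was at 665 against 1566 CPM and Hspe1 at 192 against 369 CPM, while Hsp90aa1 was at 276 against 271 CPM.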

How the results depend on the processing

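No paired analysis was possible because there is 1 sample per population. Of 224 values recomputed under the alternatives for the comparisons, 205 stayed within the counting interval (or, for counts of members, within 1.5 times the count). No ratio among them that was called in the results above changed sign. Sign was not scored for the other ratios or for the counts. Most of the 224 values are counts of members, and most of those counts were 0 under every setting. A count that stays at 0 scores as unchanged, so the number that stayed says little about the ratios. For the Hspa1a and Hspa1b log2 ratio, TMM scaling gave -1.63 for BFP within RFP+ and -0.95 within RFP-. Dendritic cell clusters alone gave -1.92 for BFP within RFP+ and -1.19 for RFP within BFP+, and the same mix of clusters gave -1.63, with -0.72 and -0.13 for RFP within BFP+ and BFP-. A hashtag share of 60% gave -0.92 for BFP within RFP-. Without the 5% deepest cells it was -1.13, and RFP within BFP- was -0.46, as it was without the top 1% of cells of the gene (-0.46). Members called lower ranged from 2 to 4 for BFP within RFP+ and from 2 to 3 for RFP within BFP+. With tag UMIs per mRNA UMI, 1 member was higher with CD11b and 2 were lower with CD8a in all 4 populations, and with CD301b 0 were higher when cells above and below the median, or dendritic cell clusters alone, were compared. The top 5% of cells held 49.9% of the pair's UMIs in BFP-RFP+ cells without thinning, and 48.1% in BFP+RFP- cells at 3000 UMIs. The log2 range over dendritic cell clusters, 2.21, became 2.80 at Leiden resolution 1.0 and 2.40 at no more than 5% mitochondrial UMIs. The cause of these moves was not tested.

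Of 520 further values, 66 left their interval (or, for shares of genes, 1.5 times the share). No ratio among them that was called in the results above changed sign. They were single-gene ratios between populations, ratios of the HSP70 pair by tag and mitochondrial share, and shares of all genes called lower. Single genes by tag or mitochondrial share were not among them. Ratios that were not called were not scored for sign, and some changed it. Hspe1 for BFP within RFP+ was at -0.03 over all cells and 0.02 in dendritic cell clusters, and Hspd1 for RFP within BFP+ at -0.01 and 0.04. TMM shifted all genes by 0.10 (log2) for BFP within RFP+ and 0.08 within RFP-, and lowered the share of called genes that were lower from 78.5% to 63.3% and from 68.2% to 54.2%. Depth limits Hsph1 most, with 216 UMIs in BFP+RFP+ cells, and the cells with 10 or more UMIs of the pair, 3 in that population.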

Other observations

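Among barcodes set aside because no hashtag reached 80% of their hashtag UMIs, those with enough UMIs and at most 10% mitochondrial UMIs were 679 with a median of 27611 UMIs. Their HSP70 pair level was 173 CPM of non-mitochondrial UMIs (167 to 179), between the extremes of the kept populations, and their Hspa8 level was 1576 CPM against 1566 in the kept cells. Grouped by their highest hashtag, the pair was at 85.0 (BFP+RFP+), 149 (BFP-RFP+), 179 (BFP+RFP-) and 268 CPM (BFP-RFP-), against 75.1, 251, 160 and 325 CPM in the kept cells of those populations.

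Genes with the most opposite pattern to the HSP70 pair over single cells were Cd80, Syn3 and Stat4, whose highest Pearson's r over the 4 populations was -0.11, -0.09 and -0.09. Cd80 encodes a costimulatory ligand for T cells.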
